A study of Homo sapiens with 12 samples.

Results

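SR proteins and heterogeneous nuclear ribonucleoproteins (hnRNPs) are RNA-binding proteins that choose which exons enter a messenger RNA, and 27 genes encoding them were examined among 18329 genes named in the tables of this series. They were chosen by symbol, as SRSF or HNRNP genes, and comprised 9 SR genes (SRSF1, SRSF3, SRSF5, SRSF6, SRSF8, SRSF9, SRSF10, SRSF11 and SRSF12) and 18 hnRNP genes (HNRNPA0, HNRNPA1, HNRNPA1L2, HNRNPA3, HNRNPAB, HNRNPD, HNRNPDL, HNRNPF, HNRNPH1, HNRNPH2, HNRNPH3, HNRNPL, HNRNPLL, HNRNPM, HNRNPR, HNRNPU, HNRNPUL1 and HNRNPUL2). HNRNPC and HNRNPA2B1, which are also readers of m6A, were left out by the rule, and SRSF2, SRSF7 and HNRNPK were not analysed here. HGC27, a line established from a human gastric carcinoma, was used throughout. Cells with FTO knockdown (genotype label FTO-KO, titles sh1 to sh3) were set against control cells (genotype label WT, titles Con1 to Con3), and no other treatment is named for either. Each condition had 3 libraries of RNA fragments bound by an m6A antibody (IP) and 3 libraries of fragments before enrichment (input), 12 libraries in all. The labels name neither the control hairpin nor separate cultures. The p-values of expression below therefore measure only the spread between input libraries, which may be technical. The authors' p-values of m6A came without m6A values per library, so what spread they measure cannot be told here.

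SR proteins carry an RNA recognition motif and a tail rich in arginine and serine, and they commonly bind exonic enhancers and recruit the spliceosome. Many hnRNPs package nascent RNA and bind silencers, so the families often act against each other at the same exon. Both families are known for limiting their own production through alternative exons that send the transcript to nonsense-mediated decay. FTO is a demethylase of N6-methyladenosine (m6A), a mark on adenosines of messenger RNA. The nuclear m6A reader YTHDC1 is known to recruit SRSF3 and to restrain SRSF10 at methylated exons. The series asks which m6A modifications FTO controls in gastric cancer cells, within a study of ferroptosis.

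The deposited m6A peak lists give each region where IP reads exceeded input reads, with the authors' fold of IP over input as the peak's own value. Peaks at promoters could be set beside sequence, and 4 stretches are shown because they carry a form of the core of the m6A motif inside a listed peak, on the strand of the splicing factor gene. The sequences are from RefSeq on GRCh38.p14, written 5′ to 3′ with the motif in capitals, and they were taken from windows of 250 bases before to 50 bases after a gene start. The first lies at chr20:43457895-43457923 (plus strand), with the motif at position 12 counted from the start of SRSF6. The next pair lies at chr19:41264983-41265011 and chr19:41264930-41264958 (plus strand), with motifs at positions -86 and -139 from one annotated start of HNRNPUL1, inside its listed 5′ UTR peak. The last lies at chr17:58007409-58007437 (minus strand), with the motif at position -179 from the start of SRSF1, in a peak that was called on an unnamed model of the opposite strand.
SRSF6 start: cattgtgtggctGGACTcggccgcccctg
HNRNPUL1 nearer the start: tcagtgcaggggGGACActgggggagggg
HNRNPUL1 farther from the start: aaaaggatctggGGACCagggccccagca
SRSF1 upstream: tgggaacgcgggGGACTtttttaccccct
The search was for GGACT first, GGACA next and then GGACC, on both strands; these share their first letters, so a site on a strand matches at most 1 of them. In all, 26 of the 27 genes had a window, with 38 windows among them, and 11 windows of 10 genes were overlapped by a peak of the same gene name. Windows of 3 genes held a motif in the peak on the gene's strand, those of SRSF6, HNRNPUL1 and SRSF1. For SRSF1 that strand is opposite to the model of the peak, so RNA of that model does not read GGACT at this site. The site also lies upstream of the SRSF1 start. Of 35116 promoter windows in the table, 58.7% held at least 1 of these motifs on the gene's strand and 82.3% on either strand. Those shares count motifs anywhere in a window, whereas the 3 genes above were counted only by the part under a peak. A match describes letters in a window and is not a mapped m6A site. The SRSF6 and HNRNPUL1 stretches lay in peaks of both lists, and the SRSF1 stretch lay in a knockdown peak but in no control peak listed under SRSF1, although that knockdown peak overlapped a control peak of another symbol.

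The 27 genes had 40 peaks in the knockdown list and 67 in the control list, out of 28891 and 39492 peaks over all genes. No gene had more peaks in the knockdown list, 16 had fewer, and 11 had equal numbers. The control list held 1.68 peaks for each knockdown peak among these genes, beside 1.37 over all genes. With peaks of an adjusted p of at most 1e-05, 37 knockdown and 55 control peaks were left, a ratio of 1.49 beside 1.04 over all genes. With 1 deposited list per condition, no peak count has a replicate error, and the depth of the IP libraries is unknown. The smaller number of knockdown peaks is therefore a description of the lists.

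Sites in the knockdown list were nearly all in the control list too. Of the 40 knockdown peaks, 38 overlapped a control peak by at least 1 bp, which is 95% (exact 95% binomial interval 83.1 to 99.4), beside 88.8% over all genes. Of the 67 control peaks, 38 were overlapped by a knockdown peak, which is 56.7% (44 to 68.8), beside 57.9% over all genes. The 29 control peaks without a knockdown partner were mostly of low enrichment, with a median of 1.93-fold. The 38 shared control peaks had a median of 5.62-fold. Among the 29 were the highest control peak of these genes, at SRSF12 (16.8-fold), and a peak listed under HNRNPR (11.5-fold). The latter lay 0.767 kb outside HNRNPR, and the authors' log10 p of that peak was only -2.82. Intervals cover counting error alone, since peaks of 1 gene share their libraries.

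Within each list these genes sat differently against the other genes. Median enrichment was 7.61-fold in the knockdown list (range 1.33 to 23.2), where the median of all peaks was 7.05-fold. In the control list it was 3.43-fold (range 1.12 to 16.8), where the median of all peaks was 6.11-fold. The 3′ UTR was the most frequent position, with 52.5% of knockdown peaks (36.1 to 68.5) and 59.7% of control peaks (47 to 71.5) annotated there. Over all peaks these shares were 46.5% and 47.6% in the knockdown and control lists, within both intervals. The 5′ UTR held 17.5% of knockdown and 17.9% of control peaks, beside 13.9% and 12.6% over all peaks. Other exons held 30% of knockdown peaks (16.6 to 46.5), beside 39.6% of all peaks, and 22.4% of control peaks (13.1 to 34.2), where the share of all peaks, 39.8%, lay above the interval. Transcripts labelled nonsense-mediated decay carried 3 knockdown peaks, all of SRSF8, and 7 control peaks, of SRSF8, SRSF3 and HNRNPU. These were 7.5% of the knockdown and 10.4% of the control peaks, beside 5.11% and 4.45% over all peaks.

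**Figure D1:**
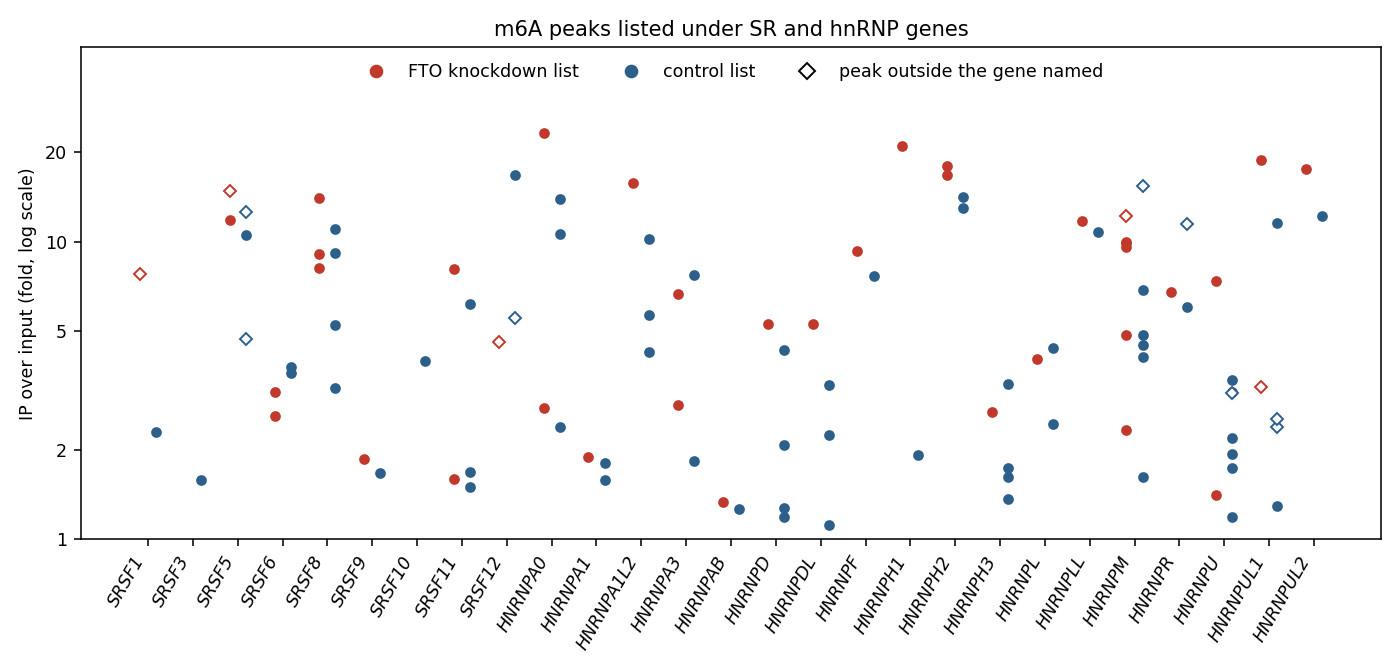
Fold of IP over input (log axis) of every peak listed under an SR or hnRNP gene, with knockdown peaks (red) left of control peaks (blue) for each gene; open diamonds are peaks outside the gene named. Highest inside a named gene were HNRNPA0 in the knockdown list (23.2-fold) and SRSF12 in the control list (16.8-fold), and most control peaks with no red partner lie near the bottom.

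A gene name in these lists is not always the gene under the peak. By RefSeq positions, 35 of 40 knockdown and 59 of 67 control peaks overlapped the gene they name. The others include peaks under HNRNPM, about 6 kb away on the neighbour MARCHF2 (6.11 kb in the knockdown list and 5.96 kb in the control list), under HNRNPUL1 on AXL, a receptor tyrosine kinase gene, and under SRSF5 on SUSD6, over 55 kb away (55.9 and 55.7 kb). Across all genes, 21.7% of knockdown and 22.6% of control peaks were called on a gene model other than the one named. With peaks inside the named gene alone, 23 genes had a peak in the knockdown list and all 27 in the control list, and SRSF1, SRSF3, SRSF10 and SRSF12 were those without one in the knockdown list.

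Among the SR genes, the highest in-gene peaks were at SRSF8, SRSF5 and SRSF11 in the knockdown list. SRSF8, a retrogene copy of SRSF2, had 3 knockdown peaks of 8.14- to 14-fold and 4 control peaks of 3.23- to 11-fold, all in its 3′ UTR. Its reads may be shared with near-identical copies, and 2 of its rows in each list cover overlapping bases. SRSF5, which binds exonic enhancers, had a 3′ UTR peak of 11.8-fold in the knockdown list and 10.5-fold in the control list, on a transcript labelled retained intron. The peak of SRSF11, which interacts with the branch point region factor U2AF, was also in the 3′ UTR, at 8.09-fold in the knockdown list and 6.17-fold in the control list. SRSF6 had a start-site and a 3′ UTR peak in each list, of 3.12- and 2.59-fold after knockdown and 3.63- and 3.79-fold in control. SRSF9 had a weak peak on exon 2 in both lists, of 1.86-fold in the knockdown list and 1.67-fold in the control list.

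In 4 SR genes the control list held a peak inside the gene and the knockdown list held none there. SRSF12, a factor known to counter other SR proteins, had a 3′ UTR peak of 16.8-fold at chr6:89098317-89098824 in the control list. SRSF10, which represses splicing when dephosphorylated, had a 3′ UTR peak of 3.96-fold at chr1:23967432-23967941 in that list. SRSF1, the founding SR protein, had a peak of 2.3-fold in the 3′ UTR of a processed transcript there. The last, of SRSF3, had 1.58-fold at chr6:36594353-36594443, over its start. Neither SRSF3, SRSF10 nor SRSF12 had a row in the authors' deposited table of differential peaks, so no change of m6A is given for them here.

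Among the hnRNPs, genes of the A/B group and of the G-run-binding F/H group spanned the whole range. HNRNPA0, a small hnRNP that binds AU-rich RNA, had a 3′ UTR peak of 23.2-fold over 1408 bases in the knockdown list, in the 92 percentile of that list by enrichment. The control list split the same stretch into peaks of 13.9- and 10.6-fold, the first in its 85.8 percentile. HNRNPA1, the main splicing silencer of the group, reached 1.89-fold in the knockdown list and 1.8-fold in the control list, in the 3.86 and 6.72 percentile of the knockdown and control lists by enrichment. HNRNPA3 had 6.69-fold in the knockdown list and 7.74-fold in the control list. HNRNPH2 had 3′ UTR peaks of 18- and 16.7-fold in the knockdown list and 14.1- and 13-fold in the control list. HNRNPF had 1 broad peak in each, of 9.31-fold in the knockdown list and 7.69-fold in the control list.

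HNRNPH1 and HNRNPAB each had 1 peak per list, at sites that did not overlap. The HNRNPH1 knockdown peak of 21-fold was at the 5′ UTR (chr5:179634056-179634454) and did not pass an adjusted p of 1e-05, while its control peak of 1.92-fold was at the 3′ UTR (chr5:179614718-179615018). HNRNPAB had weak peaks, of 1.33-fold at exon 5 in the knockdown list and 1.26-fold at exon 2 in the control list. HNRNPH3 had 1 knockdown peak of 2.68-fold and 4 control peaks of 1.37- to 3.32-fold. The AU-rich binding factor HNRNPD (AUF1) had 1 knockdown peak of 5.3-fold, at the 5′ UTR, and 4 control peaks, of which the 5′ UTR peak was highest at 4.34-fold. HNRNPM had 6 peaks in each list and was highest among all members by count in the knockdown list. HNRNPLL, known for the alternative splicing of CD45 in lymphocytes, had a 3′ UTR peak of 11.7-fold in the knockdown list and 10.8-fold in the control list. HNRNPR had 6.77-fold in the knockdown list and 6.03-fold in the control list at its 3′ UTR. HNRNPL, which binds CA repeats, had 4.04-fold in the knockdown list and 4.41-fold in the control list at its shared site.

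The HNRNPU family held the largest difference in peak number between the lists. HNRNPU (scaffold attachment factor A) binds chromatin and nascent RNA, and its 2 knockdown peaks stood beside 7 control peaks. Both knockdown peaks lay at sites of the control list, at exon 1 (7.4-fold in the knockdown list and 3.43-fold in the control list) and within the gene at chr1:244857605-244857755 (1.41- and 1.19-fold). The 5 control peaks without a partner ranged from 1.73- to 3.12-fold, and 1 of them lay 3.31 kb past the gene. HNRNPUL1 had a 5′ UTR peak of 18.8-fold in the knockdown list and 11.6-fold in the control list, the peak that holds the GGACA and GGACC stretches above. HNRNPUL2 had a 5′ UTR peak of 17.6-fold in the knockdown list and 12.2-fold in the control list.

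**Figure D2:**
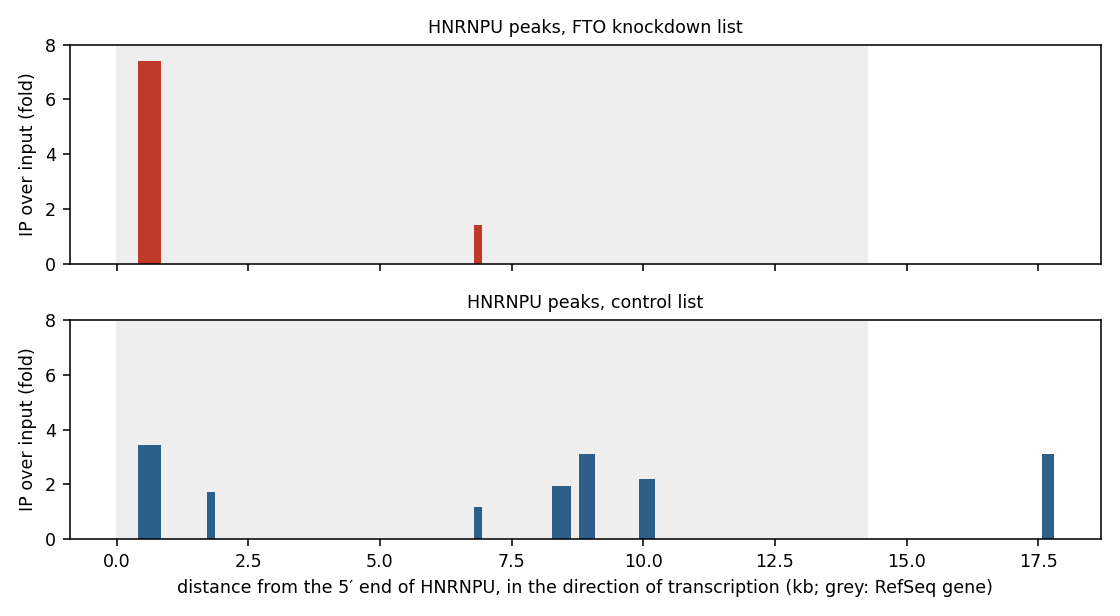
Peaks of HNRNPU in the knockdown list (top) and the control list (bottom), by distance in kb from the 5′ end of the gene; bar height is fold of IP over input, bar width is the peak, and grey marks the RefSeq gene. Exon 1 is the tallest bar in both lists, 7.4-fold after knockdown and 3.43-fold in control, and 5 control bars have no counterpart after knockdown.

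In the authors' deposited table of differential peaks, 12 of the 27 genes had a row (44.4%), beside 34.5% of the 18329 genes. The authors' deposited table gives log2 changes of m6A as control over knockdown, and they were turned round here to knockdown over control. Of the 16 rows of these genes in the authors' deposited table, 11 were higher after knockdown and 5 lower. The share listed higher was 68.8%, beside 55.4% of all 8687 rows (44.6% lower), and the median log2 change was 0.39, beside 0.28 over all rows of the authors' deposited table. With the 12 rows inside the named gene, 8 were higher and 4 lower in the authors' deposited table, 66.7% higher beside 58.6% of all such rows.

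HNRNPU exon 1 (chr1:244863691-244864230) had the largest rise of the 16 rows, a log2 change of 1.55 or 2.93-fold in the authors' deposited table (authors' p = 1e-119, adjusted p = 1e-116). It stood in the 94.4 percentile of all rows of the authors' deposited table. A second HNRNPU row, at the 5′ UTR of a retained-intron transcript, was at -0.70 with an authors' adjusted p of 0.0589 in the authors' deposited table. The same gene therefore held a row that passed and one that did not, in opposite directions. HNRNPUL2 rose by 1.09 on the log2 scale at its 5′ UTR (chr11:62724400-62727457) in the authors' deposited table (adjusted p = 1.58e-19). HNRNPH2 rose by 1.08 at its 3′ UTR (chrX:101412008-101412297) in the authors' deposited table (adjusted p = 7.94e-21), at a site also covered by the read-through model RPL36A-HNRNPH2. These 3 rows were the members' rows of at least 1 on the log2 scale in the authors' deposited table, where 16.8% of all rows rose that far.

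Smaller rises were listed for the other hnRNPs. HNRNPDL rose by 0.59 at its 5′ UTR in the authors' deposited table (chr4:82429570-82430169, adjusted p = 8.71e-10). HNRNPA0 rose by 0.53 over its 3′ UTR in the authors' deposited table (chr5:137752597-137754153, adjusted p = 1.58e-90). HNRNPAB rose by 0.35 at exon 5 in the authors' deposited table (chr5:178207200-178209394, adjusted p = 0.000166). That site had a weak knockdown peak of 1.33-fold and no control peak. HNRNPF rose by 0.16 at its 3′ UTR in the authors' deposited table (chr10:43386602-43387914, adjusted p = 5.01e-20), a small change with a small p.

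Beside the HNRNPU row at -0.70, rows lower inside a named gene in the authors' deposited table were at HNRNPL, SRSF1 and HNRNPA1L2. HNRNPL fell by 0.54 on the log2 scale in the authors' deposited table at the 3′ UTR of a retained-intron transcript (chr19:38836388-38836687, adjusted p = 6.31e-21), where the control peak of 2.44-fold had no knockdown partner. SRSF1 fell by 0.51 at its 3′ UTR in the authors' deposited table (chr17:58003524-58003644, adjusted p = 0.00158), again a control peak without a partner. HNRNPA1L2, a near-identical retrocopy of HNRNPA1, had 1 row lower at -0.55 and 1 higher at 0.42 in the authors' deposited table (adjusted p = 0.00275 and 0.0038). Its reads cannot be told apart from those of HNRNPA1 with certainty. The lower row spans over 40 kb, chr13:52600191-52642542, and starts before the gene. It has the position of a control peak called on another, unnamed gene model. That row counted as inside HNRNPA1L2 only because its span overlaps the gene, so the fall may not belong to HNRNPA1L2.

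The 4 remaining rows lay outside the gene they name. The row under SRSF1 at chr17:58007327-58008009 was 0.63 higher in the authors' deposited table (adjusted p = 0.00309) and began 0.081 kb upstream of the gene, on the strand opposite to it. Both rows under HNRNPUL1 were on AXL, 1 at 0.78 and 1 at -0.79 in the authors' deposited table (adjusted p = 1.58e-11 and 0.00813). The row under SRSF5 was on SUSD6, at 0.28 in the authors' deposited table (adjusted p = 0.000447). None of these 4 rows overlapped the RefSeq gene it names, so 10 of the 12 genes had a row inside the gene.

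**Figure D3:**
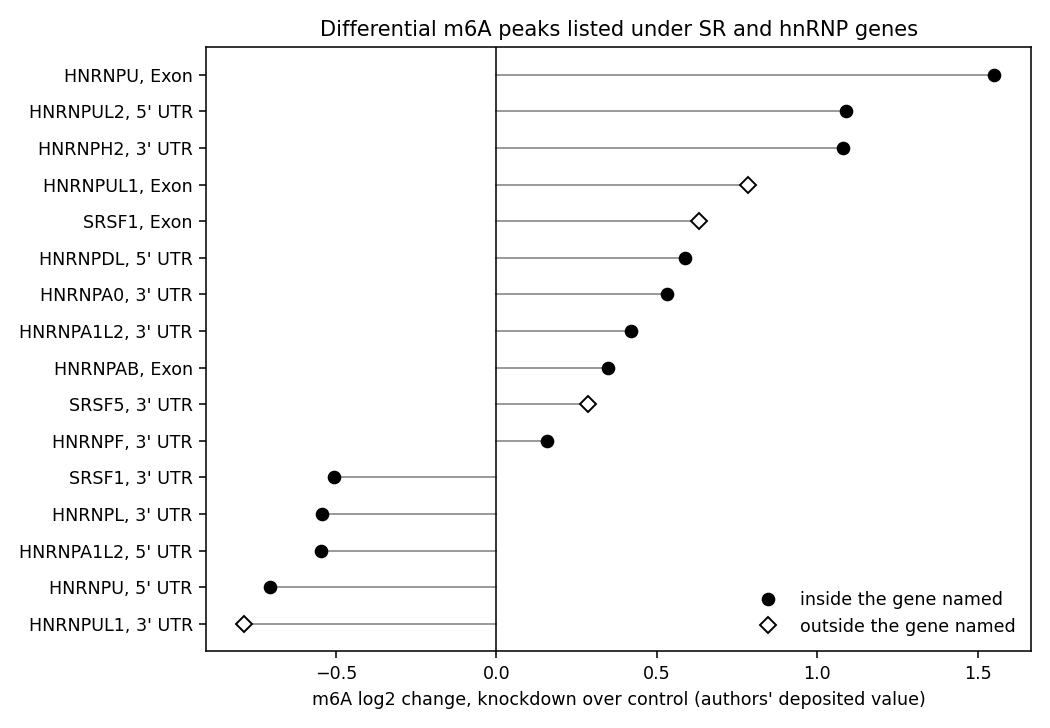
Log2 change of m6A, knockdown over control, of the 16 rows under SR and hnRNP genes in the authors' deposited table, sorted by size; filled points lie inside the gene named and open diamonds outside it. HNRNPU appears at the top (1.55 at exon 1) and near the bottom (-0.70 at the 5′ UTR), and 11 of the 16 points lie right of 0.

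Expression came as FPKM (fragments per kilobase of transcript, scaled to library size) of the 6 input libraries, for genes with a differential m6A row, so 12 of the 27 genes had values and 15 did not. FTO, the knocked-down gene, had 0.786, 0.83 and 0.765 FPKM in the knockdown libraries, against 5.48, 5.68 and 5.52 FPKM in the control libraries. Its mean FPKM was 7-fold higher in control. On the scale of log2(FPKM + 1), which understates changes of low genes, the change was -1.87 (limma, SE 0.0465, adjusted p = 4.99e-07). Libraries of the same condition had a Pearson r of 0.9877 to 0.9923 across genes, and libraries of different conditions 0.9583 to 0.9689, where genes are not independent replicates. Of the marker lists, 1 of 13 gastric epithelial, 2 of 7 fibroblast, 0 of 6 immune and 0 of 4 mesenchymal genes had FPKM rows, so the markers say little of the line's identity. The sum of COL1A1 and THY1 was 153 to 169.6 FPKM in knockdown libraries and 177 to 189 FPKM in control libraries, and the sum for MUC1 was 1.19 to 1.61 and 1.19 to 1.26 FPKM in knockdown and control libraries; their part in the results below was not tested.

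Of the 12 measured genes, 3 rose (HNRNPAB, SRSF5 and SRSF1), 3 fell (HNRNPA0, HNRNPUL2 and HNRNPUL1) and 6 did not pass. The test was limma on log2(FPKM + 1) with Benjamini-Hochberg adjustment over 4515 genes and a threshold of 0.05, and on that scale the changes of low genes are understated. With the same test 62.4% of all genes were called (24.5% higher and 37.9% lower), beside 50% of these 12, so the share called is no result about splicing factors. The split over all genes turned with scaling, to 31.6% higher and 28.6% lower with quantile normalization and 33.4% higher and 26.9% lower with median-centring. Among the 12 genes it was 3 higher and 4 lower with quantile normalization and 5 higher and 2 lower with median-centring. Their median log2 change was 0.0074, beside -0.069 over all genes tested, and their median absolute change was 0.16, beside 0.22. In bulk RNA, fewer cells of a type and less RNA per cell cannot be told apart.

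**Figure D4:**
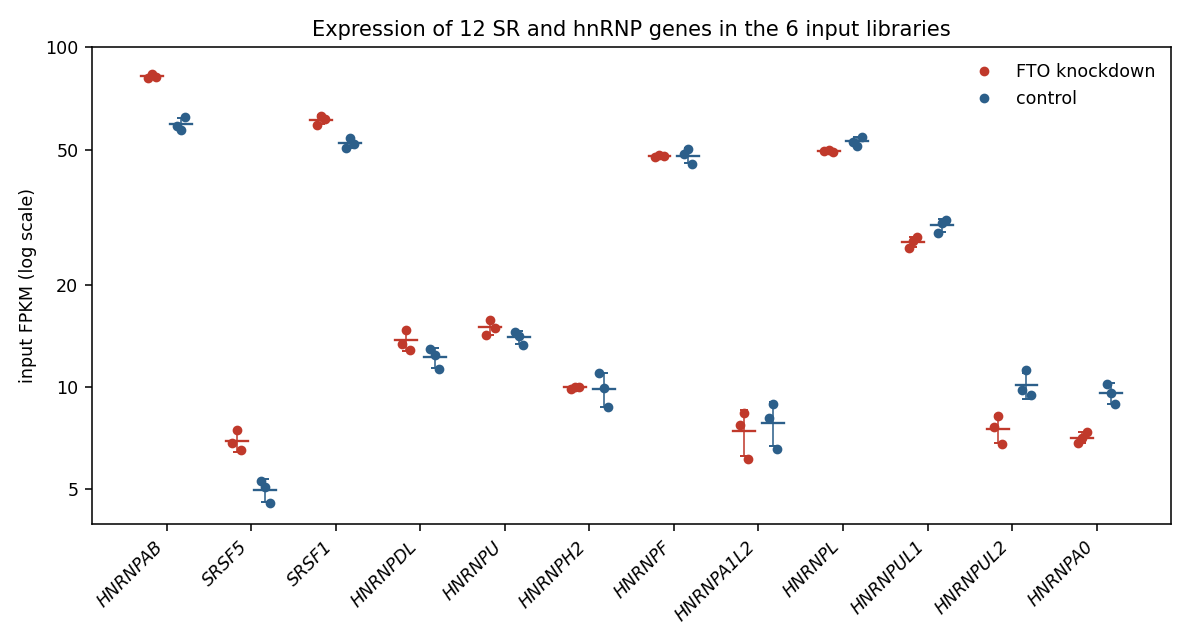
FPKM (log axis) of the 12 SR and hnRNP genes in the 3 knockdown (red, left) and 3 control (blue, right) input libraries, ordered by log2 change; points are libraries, horizontal lines are means and bars are SD. HNRNPAB, SRSF5 and SRSF1 show knockdown points above all control points, and HNRNPL, HNRNPUL1, HNRNPUL2 and HNRNPA0 below.

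SRSF5 had 6.82, 7.47 and 6.5 FPKM in knockdown libraries, against 5.29, 5.08 and 4.55 FPKM in control libraries. All knockdown values were above all control values, and the log2 change was 0.41 (limma, SE 0.0655, adjusted p = 0.00104). SRSF1, an oncogenic splicing activator in several cancers, had 59.1, 62.8 and 61.6 FPKM in knockdown libraries, against 50.6, 54 and 51.8 FPKM in control libraries. The groups again did not overlap, with a change of 0.23 (limma, SE 0.0425, adjusted p = 0.00229). Both SR genes with FPKM rose, by 1.39-fold for SRSF5 and 1.17-fold for SRSF1 in mean FPKM. Only 2 of the 9 SR genes had FPKM, and 24.5% of all genes tested were called higher, so this is no result about the family. SRSF5 had FPKM only because of its differential row on SUSD6, outside the gene.

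HNRNPAB, an RNA-binding protein of the A/B group, was the most abundant member measured. It had 81.1, 83.5 and 82 FPKM in knockdown libraries, against 58.7, 57.2 and 62.3 FPKM in control libraries. The means were 82.2 ± 1.22 FPKM after knockdown and 59.4 ± 2.58 FPKM in control (SD, n = 3 each), a log2 change of 0.46 (limma, SE 0.0428, adjusted p = 7.46e-05). HNRNPA0, its relative, went the other way, with 6.82, 7.08 and 7.35 FPKM in knockdown libraries, against 10.2, 9.56 and 8.88 FPKM in control libraries. All its knockdown values were below all control values, and it fell by 0.39 on the log2 scale (limma, SE 0.0565, adjusted p = 0.000675).

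Within the HNRNPU family the RNA of the paralogs fell. HNRNPUL2 had 7.6, 8.18 and 6.77 FPKM in knockdown libraries, against 9.75, 11.2 and 9.44 FPKM in control libraries. The groups were apart, and it fell by 0.38 (limma, SE 0.0782, adjusted p = 0.0034). HNRNPUL1 had 25.6, 26.8 and 27.6 FPKM in knockdown libraries, against 28.3, 30.4 and 30.9 FPKM in control libraries, and fell by 0.16 (limma, SE 0.0479, adjusted p = 0.0199). The HNRNPUL1 call was lost without knockdown replicate 1 (adjusted p = 0.0728), without control replicate 2 (0.0675) and with median-centring (0.295), all in limma, and it passed in 12 of 15 settings with adjusted p from 0.00385 to 0.295. HNRNPU itself had 14.2, 15.7 and 14.9 FPKM in knockdown libraries, against 14.5, 14.1 and 13.3 FPKM in control libraries. These groups overlapped, and the change of 0.09 did not pass (limma, SE 0.0509, adjusted p = 0.149).

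The other hnRNPs did not pass the test. HNRNPL had 49.4, 49.7 and 49.3 FPKM in knockdown libraries, against 52.5, 51.3 and 54.5 FPKM in control libraries. Its groups did not overlap, as was true of 7 of the 12 members and of 67.8% of all genes tested, and its adjusted p was 0.0635 in limma. HNRNPDL had 13.4, 14.7 and 12.8 FPKM in knockdown libraries, against 12.9, 12.4 and 11.3 FPKM in control libraries, with overlap (limma, adjusted p = 0.0684). Means of HNRNPF were 47.9 ± 0.38 FPKM after knockdown and 48 ± 2.51 FPKM in control (SD, n = 3 each). HNRNPH2 averaged 9.95 ± 0.109 FPKM after knockdown and 9.87 ± 1.14 FPKM in control (SD, n = 3 each), and HNRNPA1L2 averaged 7.39 ± 1.15 FPKM after knockdown and 7.84 ± 1.17 FPKM in control (SD, n = 3 each). The adjusted p of these last genes in limma were 0.98, 0.856 and 0.613.

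Side by side, m6A and RNA of a gene did not share one direction. HNRNPU, with the largest m6A rise in the authors' deposited table (1.55) and a second row at -0.70, had an RNA change of 0.09 that did not pass. HNRNPUL2 and HNRNPA0 had m6A rises of 1.09 and 0.53 in the authors' deposited table and RNA changes of -0.38 and -0.39. HNRNPAB had an m6A rise of 0.35 in the authors' deposited table and an RNA rise of 0.46, while SRSF1 had an m6A fall of 0.51 in the authors' deposited table at its 3′ UTR and an RNA rise of 0.23. HNRNPH2 and HNRNPF had m6A rises of 1.08 and 0.16 in the authors' deposited table and RNA changes of 0.02 and -0.0015. Signs were the same for HNRNPDL (m6A 0.59 in the authors' deposited table, RNA 0.15) and HNRNPL (m6A -0.54, RNA -0.09), where neither RNA change passed. HNRNPA1L2 had m6A rows of -0.55 and 0.42 in the authors' deposited table and an RNA change of -0.08 that did not pass.

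Other genes of the splicing pathway were described from 4 lists, whose counts stand beside 24.5% higher, 37.9% lower and a median of -0.069 over all genes tested. Of 24 genes of SR protein kinases, import and activators, 9 were tested, with 1 higher and 2 lower and a median log2 change of -0.08, which was 0.014 with median-centring. SRPK2, which phosphorylates SR proteins, fell to 4.91 ± 0.145 FPKM in knockdown libraries, against 8.15 ± 0.847 FPKM in control libraries (SD, n = 3 each; limma, log2 change -0.63, adjusted p = 0.000171). Its relative SRPK1 fell by 0.20 (limma, adjusted p = 0.0241), and SRRM2, a large scaffold protein of nuclear speckles, rose by 0.29 (limma, adjusted p = 0.000532). Of 38 genes of the core spliceosome and branch point factors, 10 were tested, with 5 higher and 2 lower and a median of 0.15. EFTUD2, a GTPase of the U5 particle, averaged 30.3 ± 0.751 FPKM after knockdown and 20.8 ± 0.705 FPKM in control (SD, n = 3 each; limma, adjusted p = 4.11e-05). PRPF4, a protein of the tri-snRNP, rose by 0.46 (limma, adjusted p = 9.16e-05).

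Among 37 other splicing regulators, 14 were tested, with 6 higher and 5 lower and a median of 0.04, which was -0.01 with quantile normalization. SFPQ, a paraspeckle protein, averaged 30.3 ± 1.04 FPKM after knockdown and 18.4 ± 0.91 FPKM in control (SD, n = 3 each; limma, log2 change 0.69, adjusted p = 2.92e-05). The cold-induced RNA-binding protein RBM3 rose by 0.69 and ESRP1, an epithelial splicing regulator, fell by 0.68 (limma, adjusted p = 2.17e-05 and 3.2e-05). Of 17 nonsense-mediated decay factors 9 were tested, 3 rose and 0 fell, with a median of 0.08. Quantile normalization also gave 3 higher and 0 lower, beside 31.6% higher over all genes under that scaling. With median-centring 7 of the 9 rose and 0 fell, beside 33.4% higher over all genes under that scaling, so the count depended on scaling. SMG5 averaged 51.2 ± 1.56 FPKM after knockdown and 33.3 ± 2.42 FPKM in control (SD, n = 3 each; limma, log2 change 0.61, adjusted p = 7.36e-05). CASC3 of the exon junction complex rose by 0.35 (limma, adjusted p = 0.00018).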

How the data were processed

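m6A immunoprecipitation and input libraries of HGC27 cells were grouped by their titles. The tools, per the submitters' processing notes, included HISAT2 2.0, StringTie 1.3.0 and Bowtie 0.12.2, with no role given. Those notes name the mouse build mm8, but identifiers and positions were human and were read as GRCh38. The peak caller is not given in the sources used here. Per the file headers, the deposited peak lists, 1 per condition, hold a fold enrichment (a ratio of IP to input) and scores that are log10 values of each p-value, raw and adjusted. The deposited differential table holds log2 changes, p-values and the authors' FPKM of each input library. The deposited m6A log2 values were taken as control over knockdown, since their Spearman rho with log2 knockdown over control enrichment was -0.857 over 4052 peaks. Peak starts counted from 0 in the files (start plus 1 equalled the transcript start in 2.95% of knockdown and 5.12% of control peaks) and are given from 1.

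FPKM were tested as log2(FPKM + 1) for genes with a mean of at least 1 with limma 3.58.1 in R 4.3.3 (two-sided, empirical Bayes with trend, without a block), after checks on simulated data. Of 6396 genes with FPKM, 4515 were tested. Depth is unknown, so no count test was run. Peaks were compared on exonic blocks, strands heeded where known. Members and gene lists were chosen with earlier results of these data known. All members with FPKM are named, with library values for those called and those with the 6 lowest differential p-values, and at most the 3 called genes of largest change per list; further values are given as group means, and some genes this rule would name are not reported here. The row of smallest p is given for each member. Alternatives covered pseudocounts, filters, scaling, a replicate block, libraries left out, and peak overlap and thresholds. The restriction to peaks inside the named gene was chosen after seeing the data.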

Additional observations from a re-analysis of the deposited data

How the results depend on the processing

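Of 168 alternatives for the expression of single genes, 151 kept direction and side of the threshold, 5 gained a call, 3 lost one (HNRNPUL1) and 9 changed sign, none of them called before or after the change. Under median-centring HNRNPA1L2 was at 0.0172, HNRNPF at 0.0912 and HNRNPL at 0.000617. With a library left out, HNRNPA1L2 ranged from -0.183 to 0.0393, HNRNPF from -0.0423 to 0.0308 and HNRNPH2 from -0.0612 to 0.0902 (log2, knockdown over control). Calls were 3 higher and 3 lower, and leaving out single libraries gave 3 and 2 to 3. Median-centring gave 5 higher, adding HNRNPDL and HNRNPU (adjusted p = 0.00766 and 0.00969 in limma), and 2 lower. HNRNPL was called lower without the filter (0.0444) and with quantile normalization (0.00597). Scaling moved the median of all genes by 0.0794 (quantile) and 0.0927 (median-centring). Same-numbered libraries did not deviate together across genes (r of -0.0769, 0.0278 and 0.0247). This cannot show that they were unpaired, and the labels give only a shared number, so no pairing was assumed. The replicate block gave 4 higher and 3 lower members, and 1074 higher and 1673 lower genes in all. With 50% reciprocal overlap, 70% of knockdown and 40.3% of control peaks were shared, beside 53.8% and 39.3% over all genes. Among control peaks of at least 4-fold 86.7% were shared, beside 61.3% over all genes, and among those of an adjusted p of at most 1e-05 63.6%, beside 75.6%; the cause was not tested. At an authors' p of at most 0.001, 11 member rows of the authors' deposited table were higher and 3 lower, 78.6% higher beside 61.2% of all such rows. At an absolute log2 change of at least 1, 3 member rows were higher and 0 lower, beside 63.4% higher over all such rows. A stricter threshold leaves fewer rows by construction. Inside the named gene, 94.3% of knockdown and 57.6% of control peaks were shared, beside 88.8% and 61% over all genes. IP values came per condition, so m6A has no replicate error here.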

Other observations

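Some peaks called on models of splicing factor genes were listed under other symbols, and they were chosen here after their values were seen. SRSF4, an SR gene, carried peaks listed under AL357500. One at chr1:29148671-29149151 had 10.4-fold in the knockdown list, and its counterpart at chr1:29148701-29149151 had 5.1-fold in the control list. A 3′ UTR peak of the same model had 4.49-fold in the knockdown list and 4.82-fold in the control list. HNRNPUL2 carried a peak listed under BSCL2, starting at chr11 position 62714778, of 17.9-fold in the knockdown list and 18.7-fold in the control list. These peaks are not in the counts of the 27 genes.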
